A study of Mus musculus with 2 samples.

Results

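Transcripts of *Ifng*, of the receptor chains for type II and type I interferon (*Ifngr1*, *Ifngr2*, *Ifnar1* and *Ifnar2*) and of the Janus kinases bound to these chains (*Jak1*, *Jak2* and *Tyk2*) were followed across the leukocytes of early melanomas. These 8 genes were taken by symbol from the 31053 genes listed, and all of them had transcripts in both libraries. The question was which cells held *Ifng* and which held both chains of its receptor.

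Interferon gamma is the type II interferon, released mainly by natural killer (NK) cells and T cells. It binds a receptor built of IFNGR1, which holds the ligand and carries JAK1, and IFNGR2, which carries JAK2 and is needed for the signal. The type I interferons act through IFNAR1, which carries TYK2, and IFNAR2, which carries JAK1. In tumors, interferon gamma is known for raising antigen presentation and chemokines such as CXCL9 and CXCL10 in myeloid cells.

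CD45+ leukocytes were sorted on day 4 from *Braf*-mutant melanomas with a knockout of *Ptgs*, the genes of the cyclooxygenases that start prostaglandin synthesis, grown in C57BL/6 hosts that were 8 weeks old. Control hosts were untreated, and NK cell-depleted hosts received 200 µg of anti-NK1.1 and 30 µg of anti-asialo GM1 on days 0 and 2 from tumor cell injection. The titles and the series design name the knockout, whereas the genotype label of both samples reads wildtype tumor cells. Tumors were pooled, each group was 1 library, and both sorted samples also contained added parental melanoma cells. After filtering, 5292 control cells and 4506 NK cell-depleted cells remained, with medians of 4170 and 4893 unique molecular identifiers (UMIs, single transcript molecules) per cell. Of the filtered cells, 5 had a barcode that was seen in both libraries.

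No test was possible with 1 library per group, and all differences describe this pair of libraries. Levels are UMIs summed over the cells of a type and expressed per 1000000 UMIs of those cells (CPM). Ranges in brackets are 95% intervals that cover counting error only. Cells were clustered without the 8 genes and named anew from marker genes, so each name ends in "-like". The NK-like cells carried all 10 NK markers, at a summed 13677 CPM. They numbered 517 in the control library, or 9.77% (8.98 to 10.6) of its cells, and 1 in the NK cell-depleted library. That 1 cell showed UMIs of 1 of the 10 NK markers and is not used for levels.

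The 250 bases upstream of the start sites of *Ifng* and of both chains of its receptor are shown because the results turn on these 3 genes. Sequences are from RefSeq (GRCm38.p6), 5′ to 3′ on the plus strand, on which all 3 genes lie. Capitals mark a GAS motif (TTCNNNGAA), the letters that STAT dimers are known to bind.
Ifng, chr10:118440796-118441045: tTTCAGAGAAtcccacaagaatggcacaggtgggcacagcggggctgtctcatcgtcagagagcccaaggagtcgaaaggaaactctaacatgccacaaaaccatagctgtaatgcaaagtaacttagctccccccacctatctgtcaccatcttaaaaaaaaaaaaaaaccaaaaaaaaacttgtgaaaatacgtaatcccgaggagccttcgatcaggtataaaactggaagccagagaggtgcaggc
Ifngr1, chr10:19591699-19591948: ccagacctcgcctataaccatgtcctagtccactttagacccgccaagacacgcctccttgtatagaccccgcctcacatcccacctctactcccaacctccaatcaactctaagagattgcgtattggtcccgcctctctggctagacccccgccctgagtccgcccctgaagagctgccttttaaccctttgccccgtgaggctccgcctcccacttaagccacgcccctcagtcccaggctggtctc
Ifngr2, chr16:91546809-91547058: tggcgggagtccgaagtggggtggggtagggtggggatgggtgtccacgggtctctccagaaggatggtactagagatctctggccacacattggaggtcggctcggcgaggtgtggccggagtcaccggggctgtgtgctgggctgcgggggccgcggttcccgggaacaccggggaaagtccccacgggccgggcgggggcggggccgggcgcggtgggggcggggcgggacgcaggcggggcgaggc

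The *Ifng* window held 1 GAS match, and the windows of *Ifngr1* and *Ifngr2* held none. Of 32851 upstream windows of this length, 7.02% held a match on either strand. Interferon response elements (ISRE), T-box letters (GGTGTGA) and AP-1 letters (TGANTCA), searched likewise, had no match upstream of any of the 8 genes, and 2.98%, 3.33% and 6.75% of all windows held one. The windows of *Ifngr1* and *Ifngr2* held 2 and 4 GC boxes (GGGCGG, some overlapping), which 32.7% of all windows contain, and 2 and 1 CCAAT boxes (CCAAT), which 33.8% contain. The *Ifng* window held neither. ETS letters (CCGGAAGT), in 2.88% of windows, matched upstream of *Ifnar1* alone. GC content was 59.2% upstream of *Ifngr1* and 74.0% upstream of *Ifngr2*, against 45.2% upstream of *Ifng* and a median of 52.4% over all windows. Among the other members, *Ifnar2* also had a GAS match. *Ifnar2*, *Il10rb*, *Ifnar1* and *Ifngr2* follow each other on chromosome 16 with no other protein-coding gene between them, in the GENCODE annotation of GRCm38. *Ifngr2* spans chr16:91547072-91565623, *Ifngr1* chr10:19591949-19610229 and *Ifng* chr10:118441046-118445892. *Ifng*, *Ifnar2* and *Jak1* each overlap another gene on the same strand, and how reads were shared there was not examined.

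*Ifng* transcripts lay almost wholly in lymphoid cells of the control library. The control library held 406 *Ifng* UMIs (16.4 CPM, 14.8 to 18.04) and the NK cell-depleted library 16 (0.688 CPM, 0.393 to 1.12). In such library sums, fewer cells of a type and less RNA per cell cannot be told apart. NK-like cells held 307 of the 406 control UMIs, a share of 75.6% (71.1 to 79.7), at 265 CPM (236 to 296). A small cluster of cycling lymphoid cells, led by *Pclaf*, *Ccna2* and *Top2a* and given no cell type name, held another 62 UMIs in 32 cells. Its level of 285 CPM (219 to 366) overlapped that of NK-like cells. All 15 of its cells with *Ifng* had UMIs of at least 3 NK markers.

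T cells held most of what remained. *Ifng* stood at 82.7 CPM (51.8 to 125) in control CD4/regulatory T-like cells, from 22 UMIs in 12 of 138 cells, and at 59.8 CPM (24.0 to 123) in CD8 T-like cells, from 7 UMIs in 2 of 57 cells. NK-like cells exceeded them 3.20-fold (2.08 to 5.19) and 4.43-fold (2.12 to 11.1). In the NK cell-depleted library, 0 UMIs were found in 111 CD8 T-like cells and 0 in 30 CD4/regulatory T-like cells. There, 13 of the 16 UMIs came from 2 γδ T-like cells, 1 of which held 9. γδ T-like cells therefore stood at 0 *Ifng* UMIs in 55 control cells and at 132 CPM (70.4 to 226) in 33 NK cell-depleted cells, a value that rests on those 2 cells.

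Myeloid cells had little or none. The 3025 control monocyte/macrophage-like cells held 6 *Ifng* UMIs, 1 in each of 6 cells, or 0.400 CPM (0.147 to 0.871). The 2837 NK cell-depleted ones held 1. Of these 6 control cells, 2 were called doublets and 2 had UMIs of at least 3 NK markers. *Gzma*, a granule protease gene of NK cells, gave 315 UMIs in the same control cells and 0 in the NK cell-depleted ones. *Ifng* made up 1.87% (0.689 to 4.02) of the *Ifng* and *Gzma* UMIs in control monocyte/macrophage-like cells, below 4.18% (3.73 to 4.66) in NK-like cells with overlapping intervals. In control neutrophil-like cells, *Ifng* stood at 0 UMIs in 358 cells, and *Gzma* at 52 UMIs. A count of 0 allows a UMI in up to 0.838% of such cells (3 of 358), at a median depth of 1157.5 UMIs against 2094 in NK-like cells, and sets no limit on cells that express the gene. Control B-like, melanoma-like and plasmacytoid DC-like cells also had 0 *Ifng* UMIs. Outside NK-like cells, *Ifng* was 6.49-fold (3.75 to 12.0) higher in the control library, with 99 UMIs in 36 cells against 15 UMIs in 4 cells. Among 12603 genes tested in these cells, 8.16% were at least 1.5-fold higher there and 4.92% lower. This ratio rested on few cells, and 62 of the 99 control UMIs lay in the 15 cycling lymphoid cells with NK markers. Without the cycling lymphoid cells, a comparison added after seeing the data, 37 UMIs in 21 control cells stood against 14 UMIs in 3 cells, a ratio of 2.62 (1.38 to 5.24). The log2 value of 2.66 with them became 0.45 (-0.57 to 1.55) when only deeper cells of low mitochondrial share were kept. That was the lowest of 8 alternative settings, which reached up to 6.74 and all had the same sign.

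**Figure D1:**
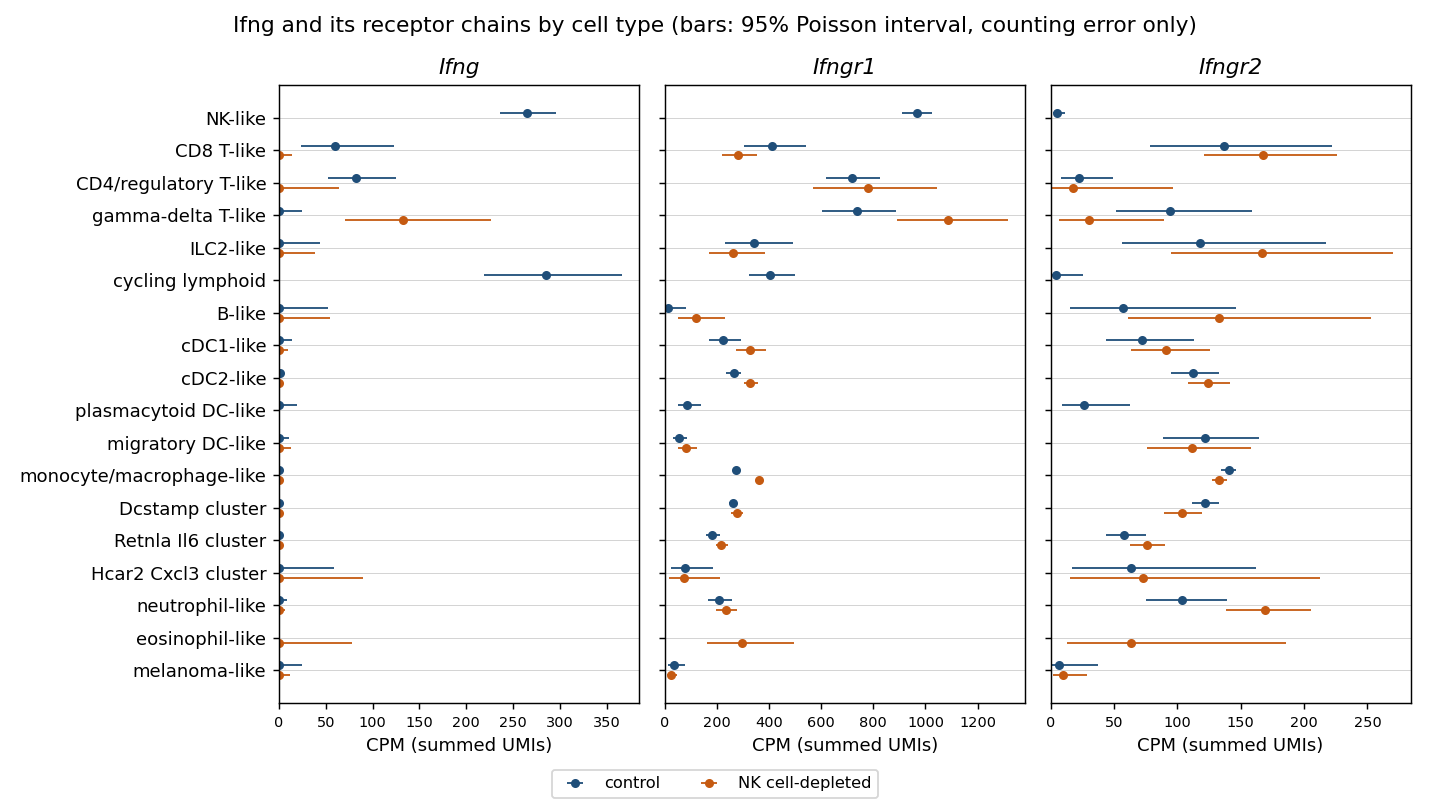
Levels of *Ifng*, *Ifngr1* and *Ifngr2* by cell type, in CPM of summed UMIs on linear axes, with points for the control (blue) and NK cell-depleted (orange) library and bars for 95% Poisson intervals of counting error. Only types with at least 20 cells in a library are drawn. NK-like cells sit at 265 CPM for *Ifng*, 967 CPM for *Ifngr1* and 5.17 CPM for *Ifngr2*, while monocyte/macrophage-like cells reach 141 and 133 CPM for *Ifngr2*.

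Within NK-like cells, *Ifng* was spread over many cells. A UMI was seen in 136 of 517 cells, or 26.3% (22.6 to 30.3), and in 25.6% (20.6 to 31.2) of the 277 cells deep enough to be thinned to 2000 UMIs each. A single UMI was seen in 67 cells, and at least 5 UMIs in 11 cells. The 5 cells with the most *Ifng* held 16.3% of it, and 31 cells held 50%. Median depth was alike, at 2123.5 UMIs in cells with *Ifng* and 2058 in cells without. The 3 NK-like subclusters gave overlapping shares of cells with *Ifng*. The subcluster led by *Zfhx3*, *Gpc1* and *Ccl5* had 25.4% of 232 cells, the one led by *Spp1*, *Il1b* and *Car2* 28.0% of 200, and the one led by *Cx3cr1*, *As3mt* and *S1pr5* 24.7% of 85. Their levels of *Ifng* were 336, 241 and 213 CPM.

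NK-like cells with *Ifng* were higher in some chemokine and early activation genes. Of 13 listed NK activation genes with at least 20 UMIs, 5 were at least 1.5-fold higher in cells with *Ifng* and 0 lower, against 7.92% higher and 10.9% lower of 6452 genes. *Ccl4*, a chemokine released by activated NK cells, stood at 3542 CPM with *Ifng* and 1347 CPM without, a ratio of 2.63 (2.42 to 2.86). *Ccl3*, a related chemokine, had a ratio of 2.50 (2.07 to 3.03). *Cd69*, an early activation marker, had a ratio of 1.88 (1.46 to 2.41), and *Nr4a1*, an immediate early gene, 1.84 (1.57 to 2.16). *Xcl1*, the ligand of the cDC1 receptor XCR1, had a ratio of 1.61 (1.32 to 1.96). *Ccl5*, the most abundant chemokine of the list, stood at 6240 and 5840 CPM, a ratio of 1.07 (1.01 to 1.13). *Tnfrsf9* (1.40), *Ifrd1* (1.09), *Irf8* (1.03) and *Fasl* (0.84) did not pass 1.5-fold either. The granule genes did not pass 1.5-fold, with *Gzma* at 1.005 (0.953 to 1.06), *Gzmb* at 1.06 (0.879 to 1.26) and *Prf1* (perforin) at 0.94 (0.829 to 1.07).

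Of 8 receptors and factors that induce *Ifng* in lymphocytes, 0 passed 1.5-fold higher in the cells that held it and 1 passed it lower. Over all 6452 genes of this split, 7.92% were higher and 10.9% lower, so these counts do not set the list apart. That gene, *Il12rb2*, a chain of the IL-12 receptor, had a ratio of 0.64 with an interval that included 1 (0.355 to 1.10). *Il18r1*, a chain of the IL-18 receptor, stood at 267 CPM with *Ifng* and 371 CPM without (0.72, 0.557 to 0.917). The transcription factors *Tbx21* and *Eomes* had ratios of 1.15 and 1.07, with intervals that included 1. Among the receptor chains and kinases, *Ifnar1* had a ratio of 0.71 (0.505 to 0.972), *Ifngr1* of 0.96 and *Jak1* of 1.01. These cells were split by a measured UMI in the same library, so the ratios describe 1 library and have no replicate check.

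**Figure D2:**
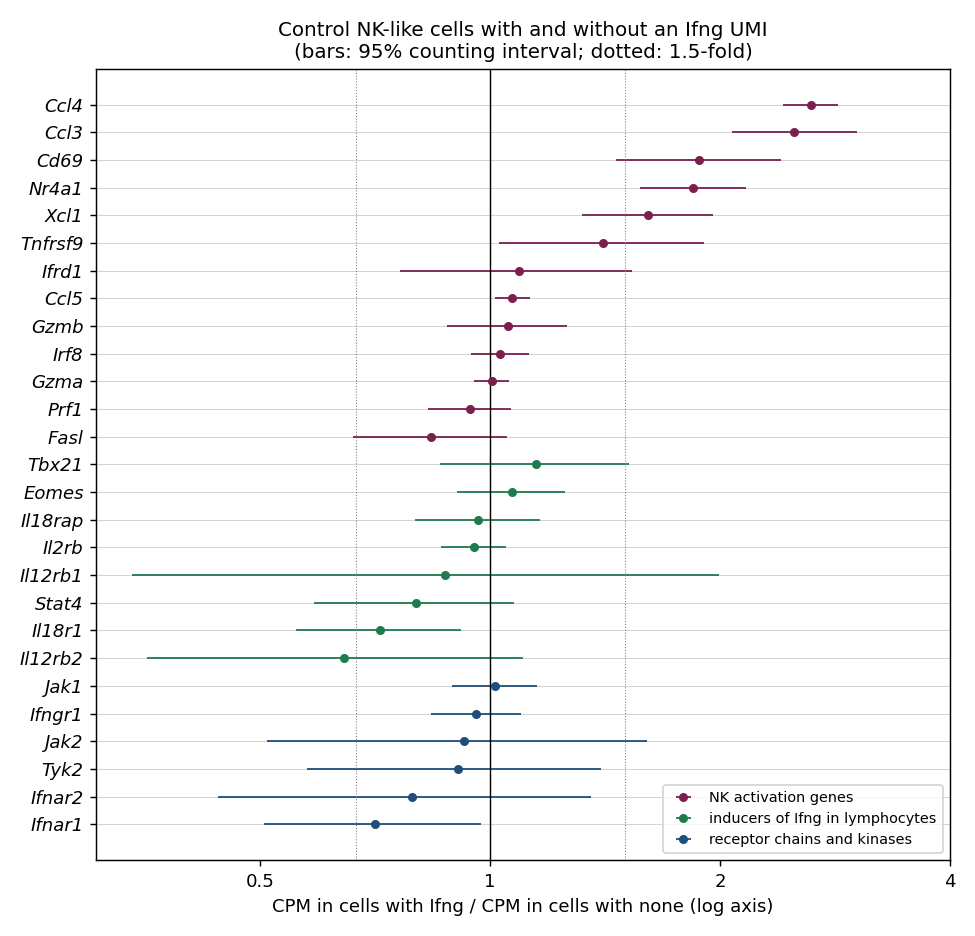
Ratio of CPM in the 136 control NK-like cells with an *Ifng* UMI to CPM in the 381 without, on a log axis, for listed genes with at least 20 UMIs; bars are 95% counting intervals and dotted lines mark 1.5-fold. *Ccl4* and *Ccl3* lie furthest to the right at 2.63 and 2.50, and *Gzma* lies at 1.005.

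NK-like cells, which held most of the *Ifng*, carried the ligand-binding chain of its receptor and almost none of the signaling chain. In the control library *Ifngr1* was highest in NK-like cells, at 967 CPM (912 to 1026), with a UMI in 80.9% of cells. γδ T-like cells stood at 736 CPM (605 to 888) in control hosts and 1088 CPM (892 to 1315) in depleted hosts, and CD4/regulatory T-like cells at 718 (620 to 827) and 781 CPM (570 to 1045), with overlapping intervals between these types. Monocyte/macrophage-like cells stood at 272 (263 to 280) and 363 CPM (353 to 372). *Ifngr1* was 3.56-fold (3.33 to 3.80) higher in NK-like cells than in control monocyte/macrophage-like cells. Migratory DC-like cells were low, at 54.0 (32.5 to 84.4) and 82.8 CPM (52.5 to 124). Melanoma-like cells were low too, at 33.7 and 22.9 CPM from 5 and 7 UMIs. Only 53 and 70 such cells, with median depths of 1670 and 2021.5 UMIs, remained under the upper limits on UMIs and genes. The part of the added parental melanoma cells among them was not tested.

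*Ifngr2* showed another order. In 517 control NK-like cells only 6 UMIs were counted, in 6 cells, or 5.17 CPM (1.90 to 11.3). Control monocyte/macrophage-like cells held 2108 UMIs at 141 CPM (135 to 147), 27.2-fold (12.5 to 74.1) above NK-like cells, and the NK cell-depleted ones 133 CPM (127 to 139). With cells called one by one from markers in place of clusters, NK-like cells held 17 *Ifngr2* UMIs and that fold was 12.1 (7.54 to 20.8), and without doublets it was 40.4 (15.7 to 148) on 4 UMIs. CD8 T-like cells, which also held *Ifng* in the control library, stood at 137 (78.1 to 222) and 168 CPM (121 to 226), 26.4-fold (9.82 to 82.4) above NK-like cells in the control library. ILC2-like cells (118 and 167 CPM), migratory DC-like cells (122 and 112 CPM), cDC2-like cells (113 and 124 CPM) and the cluster led by *Dcstamp* (122 and 104 CPM) had intervals that overlapped that of CD8 T-like cells in the control library. In the NK cell-depleted library all of these overlapped it but the *Dcstamp* cluster. CD4/regulatory T-like cells were low at 22.5 (8.27 to 49.1) and 17.4 CPM (0.440 to 96.7), 4.36-fold (1.17 to 16.3) above NK-like cells in the control library. γδ T-like cells, whose *Ifng* was seen in the NK cell-depleted library alone, held 94.6 (51.7 to 159) and 30.5 CPM (6.29 to 89.2) of *Ifngr2*. The control cycling lymphoid cells held 1 UMI, or 4.60 CPM (0.117 to 25.7). NK-like cells did not differ beyond counting error from the cycling lymphoid cells or from control melanoma-like cells, at 6.74 CPM from 1 UMI. Control NK-like cells also had UMIs of 24 of 26 monocyte/macrophage markers. These summed to 1753 CPM, against 22538 CPM in control monocyte/macrophage-like cells. The part of such RNA in the 6 *Ifngr2* UMIs of NK-like cells was not tested.

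Single cells were then examined for UMIs of both chains. When every cell was thinned to 2000 UMIs, 0 of 277 NK-like cells had UMIs of both *Ifngr1* and *Ifngr2*, which allows a share of up to 1.08% (3 of 277). The product of the single shares was 0.845%, so an absence beyond that product was not detectable at this depth. Thinning left out 240 shallower NK-like cells, and unthinned 5 of 517 (0.967%, 0.315 to 2.24) had both. At 1000 UMIs per cell 2 of 492 had both (0.407%, 0.0493 to 1.46), and at 4000 UMIs 1 of the 24 cells of that depth (4.17%, 0.105 to 21.1). Among control monocyte/macrophage-like cells, 275 of 2690 thinned cells had both chains, or 10.2% (9.10 to 11.4), and among NK cell-depleted ones 331 of 2588, or 12.8% (11.5 to 14.1). Without thinning, 31.7% and 38.0% had both. The products of the single shares were 9.62% and 11.5%.

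Both chains were also seen together in CD8 T-like cells, in 3 of 29 control and 10 of 67 NK cell-depleted thinned cells, and in 7 of 51 control γδ T-like cells. In control CD4/regulatory T-like cells 0 of 55 had both, and in migratory DC-like cells 0 of 57 and 0 of 45. cDC2-like cells, at 8.66% (5.37 to 13.1) and 9.44% (6.31 to 13.4), overlapped monocyte/macrophage-like cells of both libraries. Such shares count transcripts caught at 1 depth and understate the cells that express both genes.

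**Figure D3:**
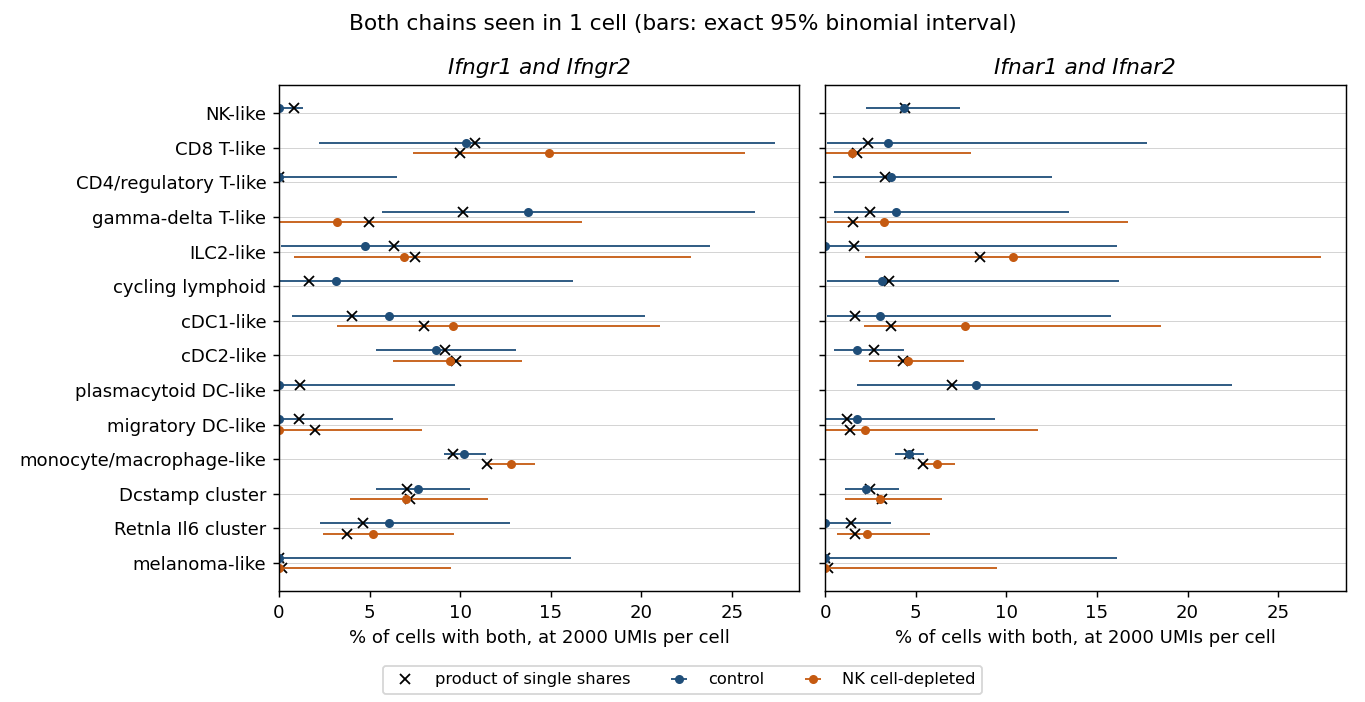
Percentage of cells with UMIs of both chains of the type II (left) and type I (right) receptor after thinning each cell to 2000 UMIs, for types with at least 20 such cells in a library. Points are the control (blue) and NK cell-depleted (orange) library, bars are exact 95% binomial intervals, and crosses are the product of the single shares. NK-like cells sit at 0% for *Ifngr1* with *Ifngr2* and at 4.33% for *Ifnar1* with *Ifnar2*.

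The type I receptor did not show this split in NK-like cells. *Ifnar1* stood at 205 CPM (180 to 233) and *Ifnar2* at 69.0 CPM (54.7 to 85.9) there, and both were seen in 12 of 277 thinned cells, or 4.33% (2.26 to 7.45). That share overlapped the 4.61% (3.85 to 5.47) of control monocyte/macrophage-like cells. *Ifnar1* was highest in CD4/regulatory T-like cells, at 278 (218 to 349) and 399 CPM (253 to 599), and in ILC2-like cells, at 248 (154 to 379) and 427 CPM (306 to 579). Control plasmacytoid DC-like cells, the cell type known for making type I interferon, held 225 CPM (162 to 304). *Ifnar2* stood at 130 (124 to 136) and 144 CPM (138 to 150) in monocyte/macrophage-like cells. It was 1.88-fold (1.51 to 2.39) higher in control monocyte/macrophage-like than in NK-like cells, where *Ifnar1* was 1.57-fold (1.36 to 1.79) higher in the other direction. In melanoma-like cells *Ifnar1* and *Ifnar2* had 1 UMI each in the control library and 4 and 2 UMIs in the NK cell-depleted library. The parental melanoma cells added after sorting were not told apart among these cells.

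The kinases divided the cells differently again. *Jak1*, which serves both receptors, was highest in control NK-like cells at 1036 CPM (979 to 1097), 4.90-fold (4.58 to 5.23) above control monocyte/macrophage-like cells at 212 CPM. CD8 T-like cells stood at 658 (519 to 822) and 678 CPM (581 to 787), and control cycling lymphoid cells at 589 CPM (492 to 701). CD4/regulatory T-like cells, at 522 (439 to 617) and 538 CPM (366 to 764), and neutrophil-like cells, at 522 (455 to 595) and 520 CPM (464 to 580), had overlapping intervals with these in the control library. *Jak2*, the partner of IFNGR2, was highest in migratory DC-like cells at 429 (364 to 504) and 400 CPM (329 to 481). In the control library that was 7.01-fold (5.26 to 9.43) above NK-like cells, which held 61.2 CPM. Control plasmacytoid DC-like cells (209 CPM), neutrophil-like cells (182 and 192 CPM) and cDC2-like cells (179 and 181 CPM) had overlapping *Jak2* intervals. Monocyte/macrophage-like cells, which held both receptor chains, had 41.1 (38.0 to 44.5) and 40.0 CPM (36.9 to 43.3) of *Jak2*. *Tyk2*, the partner of IFNAR1, stood at 100.02 CPM (82.7 to 120) in NK-like cells, 96.7 CPM in control migratory DC-like cells and 32.5 CPM (29.6 to 35.5) in control monocyte/macrophage-like cells. Neutrophil-like cells held little *Tyk2*, at 11.8 (3.83 to 27.6) and 14.8 CPM (6.77 to 28.1).

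**Figure D4:**
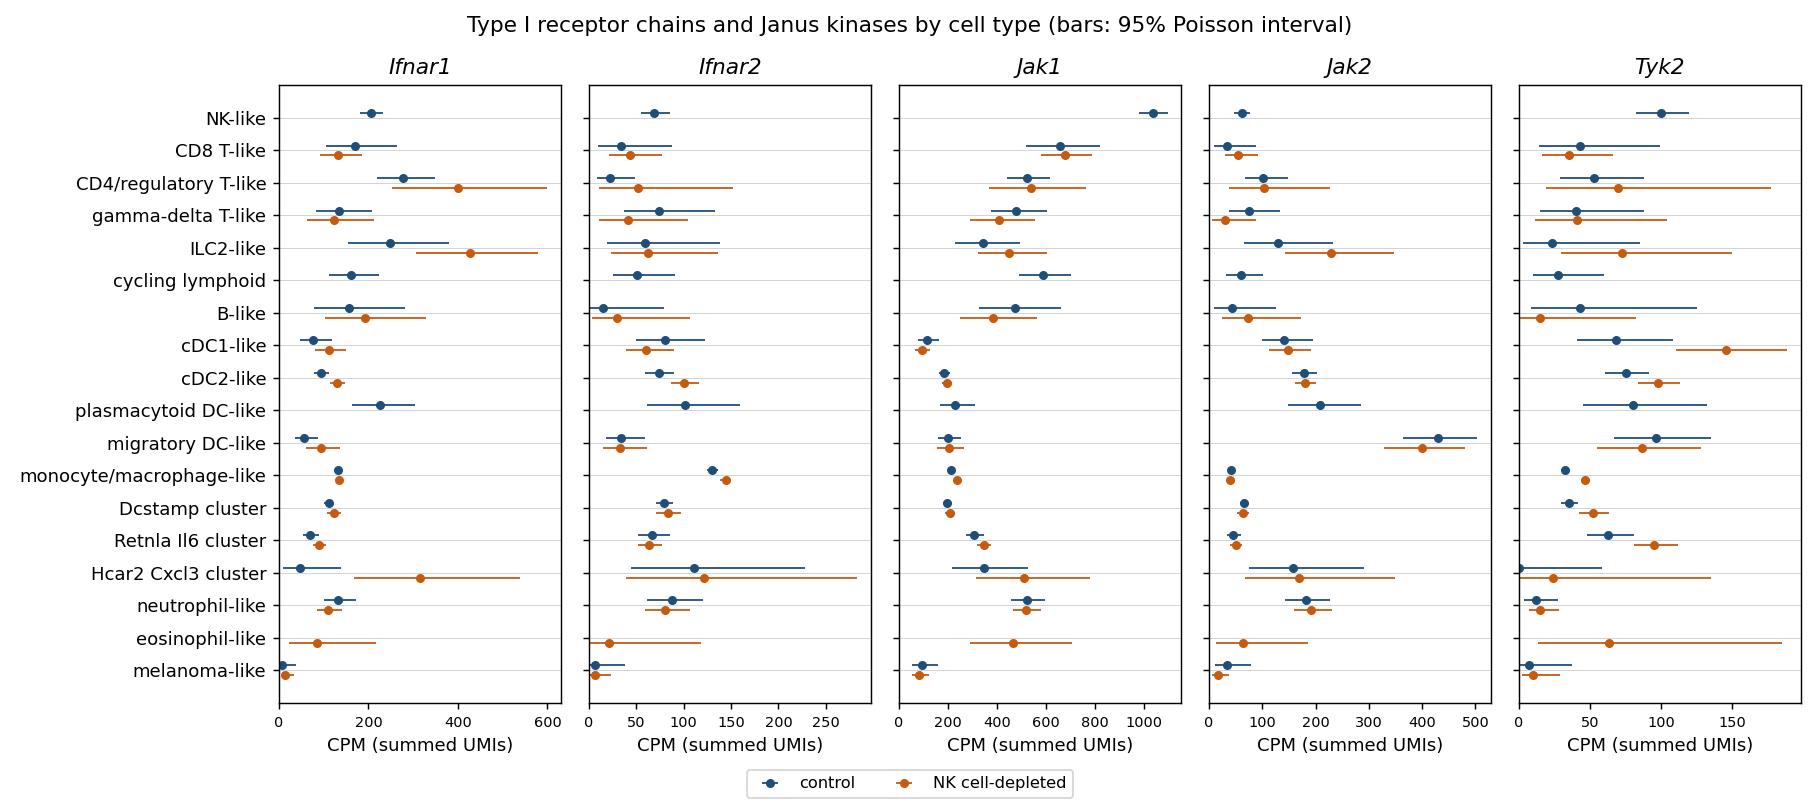
Levels of *Ifnar1*, *Ifnar2*, *Jak1*, *Jak2* and *Tyk2* by cell type, in CPM of summed UMIs on linear axes that differ between genes. Points are the control (blue) and NK cell-depleted (orange) library with 95% Poisson intervals, for types with at least 20 cells. *Jak1* peaks in NK-like cells at 1036 CPM and *Jak2* in migratory DC-like cells at 429 and 400 CPM.

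Between the libraries, the receptor and kinase genes of monocyte/macrophage-like cells differed by less than 1.5-fold. Of these 7 genes, 0 passed that fold, against 9.09% of 11544 genes at least 1.5-fold higher and 3.99% at least 1.5-fold lower in the control library. *Ifngr1*, at 272 and 363 CPM, had a control to NK cell-depleted ratio of 0.75 (0.720 to 0.780). *Tyk2*, at 32.5 and 46.9 CPM, had a ratio of 0.69 (0.616 to 0.778). *Jak1* and *Ifnar2* both had ratios of 0.90, and *Ifngr2* (1.06, 0.993 to 1.12), *Ifnar1* (0.98, 0.922 to 1.04) and *Jak2* (1.03, 0.919 to 1.15) had intervals that included 1.

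The *Ifngr1* ratio was not the same in all 8 clusters of these cells. It lay below 1 beyond counting error in 5 clusters, between 0.74 and 0.83. In the cluster led by *Vcan* and *Ly6c2*, markers of classical monocytes, *Ifngr1* stood at 396 and 525 CPM, and in the cluster led by *Ace* and *Chil3* at 450 and 592 CPM, the highest levels among the 8. In the cluster led by *Gpnmb* and *Mmp13* it stood at 177 (161 to 195) and 125 CPM (107 to 145), a ratio of 1.42 (1.19 to 1.69). There *Ifngr2* had a ratio of 1.44 (1.18 to 1.78). The cluster led by *Retnla* and *Mmp12* had 65 and 23 *Ifngr1* UMIs and 46 and 9 *Ifngr2* UMIs. Its ratios were 1.67 (1.02 to 2.82) for *Ifngr1* and 3.02 (1.46 to 7.02) for *Ifngr2*. There *Ifnar1* (1.71) was also past 1.5-fold higher and *Tyk2* (0.49) lower, with intervals that included 1. Beyond counting error, *Tyk2* was lower in 2 of the 8 clusters and higher in 0. In the cluster led by *Reps2* and *Gas6* it stood at 44.0 and 76.3 CPM, a ratio of 0.58 (0.390 to 0.843). The share of all genes past 1.5-fold was not counted in single clusters. The clusters also made up different shares of the libraries. Cells of the *Vcan* and *Ly6c2* cluster were 8.50% of control and 20.2% of NK cell-depleted monocyte/macrophage-like cells, and those of the *Gpnmb* and *Mmp13* cluster 21.4% and 11.7%. When the 8 clusters counted equally, *Ifngr1* had a log2 ratio of -0.23 in place of -0.42.

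**Figure D5:**
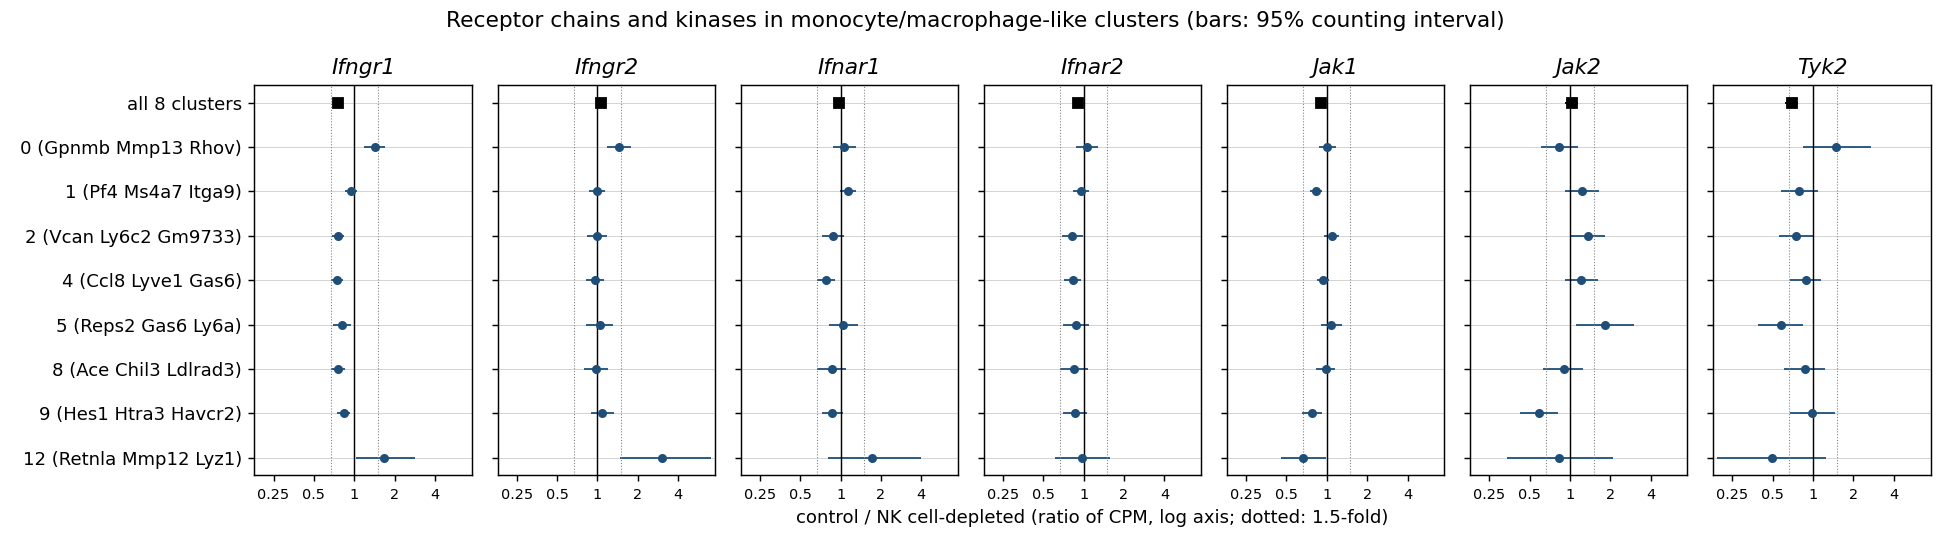
Control to NK cell-depleted ratio of CPM on a log axis for the receptor chains and kinases in all monocyte/macrophage-like cells (squares) and in their 8 clusters (circles, named by leading genes), with 95% counting intervals and dotted lines at 1.5-fold. *Ifngr1* lies at 0.75 in all cells, at 1.42 in the *Gpnmb* and *Mmp13* cluster and at 0.74 to 0.83 in 5 clusters.

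In other cell types, few receptor or kinase genes passed 1.5-fold with an interval that left out 1. In neutrophil-like cells *Ifngr2* had 104 CPM (75.5 to 140) in control and 169 CPM (138 to 205) in NK cell-depleted hosts, a ratio of 0.61 (0.421 to 0.882). There, 10.4% of 4593 genes were at least 1.5-fold lower and 10.7% higher. *Tyk2* had a ratio of 0.66 in the cluster led by *Retnla* and *Il6* (62.9 and 95.4 CPM), where 9.72% of 7761 genes were as low and 8.07% at least 1.5-fold higher. In cDC1-like cells *Tyk2* had a ratio of 0.47 (68.7 and 146 CPM), where 15.5% of 4493 genes were as low and 11.1% at least 1.5-fold higher. Migratory DC-like cells had *Ifngr1* (54.0 and 82.8 CPM) and *Ifnar1* (56.9 and 93.6 CPM) past 1.5-fold lower, with intervals that included 1, where 17.5% of 3904 genes were as low and 11.1% at least 1.5-fold higher. In cDC2-like cells and in the *Dcstamp* cluster 0 of 7 genes passed 1.5-fold, where 8.47% of 8390 and 7.95% of 9628 genes were at least 1.5-fold lower. Among T cells, 0 of 4 tested receptor and kinase genes passed 1.5-fold in CD8 T-like cells (13.8% of 2911 genes higher, 14.5% lower), 0 of 4 in CD4/regulatory T-like cells (16.5% of 2885 genes higher, 21.5% lower) and 0 of 3 in γδ T-like cells (14.3% of 2263 genes higher, 15.7% lower).

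Downstream of the receptor, targets of interferon gamma were higher in control monocyte/macrophage-like cells. Of 19 targets tested, 9 were at least 1.5-fold higher and 0 lower, against 9.09% and 3.99% of 11544 genes, with a median log2 ratio of 0.49 against -0.00 over all of them. *Cxcl9*, a CXCR3 ligand, stood at 18.3 and 3.34 CPM, a ratio of 5.48 (4.07 to 7.53). *Iigp1*, an immunity-related GTPase, stood at 25.6 and 6.36 CPM, a ratio of 4.02 (3.22 to 5.07). *Serpina3g*, a serine protease inhibitor gene, had a ratio of 5.03 (3.08 to 8.60), and the guanylate-binding proteins *Gbp8*, *Gbp4*, *Gbp5* and *Gbp2* had ratios of 2.91, 2.85, 1.98 and 1.73. *Cxcl10*, a further CXCR3 ligand, stood at 153 and 74.1 CPM, and *Cd274*, which encodes PD-L1, at 48.4 and 31.5 CPM. *Psmb8*, *Tap1* and *Irgm1* had ratios of 1.09, 1.05 and 0.84.

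*Irf1*, a transcription factor induced by interferon gamma, stood at 68.3 and 65.8 CPM. Among 8 inhibitors of receptor or kinase, *Ptpn6*, the phosphatase SHP-1, was lower in the control library at 214 and 322 CPM (0.67, 0.637 to 0.697). *Socs3*, a feedback inhibitor of cytokine receptors, had a ratio of 1.25 (1.18 to 1.32), and *Socs1*, the feedback inhibitor of interferon gamma signaling, 1.15 (0.937 to 1.41).

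RNA of NK cells was present in the same control cells. All 10 NK markers had UMIs in control monocyte/macrophage-like cells, at a summed 55.8 CPM, and 5 had UMIs in NK cell-depleted ones, at 3.86 CPM. Of 7 inducers of *Ifng* tested, 6 were at least 1.5-fold higher in control monocyte/macrophage-like cells, against 9.09% of 11544 genes. Among them, *Eomes* had 36 control and 0 NK cell-depleted UMIs, *Il2rb* 132 and 4, and *Il18r1* 38 and 8. *Il18rap* (129 and 72 UMIs) and *Stat4* (106 and 62 UMIs) were also seen with NK cells depleted. *Il18rap* stood at 224 and 248 CPM in neutrophil-like cells, so it was not limited to NK and T cells here. Of 15 NK activation genes, 7 were higher (*Gzma*, *Xcl1*, *Prf1*, *Gzmb*, *Fasl*, *Ccl5* and *Tnfrsf9*) and *Nr4a1* was lower, at 460 and 921 CPM, against the same 9.09% and 3.99% of genes. The part of this RNA in the levels of the targets was not tested.

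Targets of interferon gamma were counted in the same way in other cells. In neutrophil-like cells 5 of 10 were at least 1.5-fold higher in the control library, against 10.7% of 4593 genes, with 194 and 3.29 CPM of NK markers beside them. In cDC2-like cells 8 of 16 were higher, against 7.75% of 8390 genes, with 298 and 276 CPM of NK markers. Those sums came from 9 of 10 markers in the control library and 2 of 10 in the NK cell-depleted one. *Gzma* had 15 and 0 UMIs in these cells. In the *Dcstamp* cluster 9 of 16 were higher and 1 lower, against 7.79% and 7.95% of 9628 genes, with 116 and 19.6 CPM of NK markers. The cluster led by *Retnla* and *Il6* had 7 of 15 higher and 0 lower, against 8.07% and 9.72% of 7761 genes. cDC1-like cells had 1 of 5 higher and 0 lower, against 11.1% and 15.5% of 4493. Migratory DC-like cells had 3 of 11 higher and 2 lower, against 11.1% and 17.5% of 3904. γδ T-like cells had 1 of 7 higher and 2 lower, against 14.3% and 15.7% of 2263.

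Among 20 genes of type I and type III interferon ligands, 19 had 0 UMIs in both libraries. The other was *Ifnb1*, with 0 control and 8 NK cell-depleted UMIs, all 8 in monocyte/macrophage-like cells. *Il10rb*, shared by the receptors of IL-10 and of type III interferon, stood at 143 and 170 CPM in monocyte/macrophage-like cells (0.84, 0.794 to 0.890). *Ifnlr1*, the chain particular to type III interferon, had 8 and 11 UMIs in all cells.

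Over 21 profiles, each of 1 cell type with at least 50 cells in 1 library, the 3 genes most like each member were listed among 9522 genes by Pearson r of log2(CPM + 10). *Ifng* was most like *Gzmb* (0.92), *Nkg7* (0.91) and *Arl4d* (0.91). *Ifngr1* and *Ifnar1* shared *Ptpn18* (0.94 and 0.93) and *Bin2* (0.93 for both) as the closest genes, followed by *Stk10* (0.92) and *Cbl* (0.93). *Ifngr2* was most like cytokine receptor genes *Il4ra* (0.77) and *Il6ra* (0.75), and then *Sbno2* (0.74). *Ifnar2* was closest to *Bach1* (0.89), *Tmx1* (0.88) and *Inpp5d* (0.86), and *Jak1* to *Arhgef3* (0.92), *Cab39* (0.91) and *Hcst* (0.90). *Jak2* was closest to *Ifitm1* (0.84), *Jaml* (0.76) and *Stard7* (0.76), and *Tyk2* to *Crybg1* (0.90), *Atp6v0a2* (0.90) and *Cd47* (0.89). Among the members, r was 0.92 for *Ifngr1* with *Ifnar1*, 0.23 for *Ifngr1* with *Ifngr2* and -0.46 for *Ifng* with *Ifngr2*. The profiles share libraries and differ in depth, so these values are descriptions.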

How the data were processed

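Leukocyte transcripts were measured by droplet single-cell RNA sequencing. The authors deposited raw UMI counts per gene and cell, 1 matrix a library, made with bcl2fastq and Cell Ranger (3.0.2 in the file headers) on mm10. The study's methods name another release of Cell Ranger. Their normalized table was not used here. The study's filter (at least 500 and at most 15000 UMIs, between 200 and 4000 genes, mitochondrial share up to 10%) left 9798 of 11651. The libraries kept 24810009 and 23245982 UMIs.

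Values of the 2000 most variable genes, without the members, interferon ligands, receptors, transducers, inhibitors and targets, gave 15 principal components and Leiden clusters (scanpy 1.11.5, leidenalg 0.10.2, resolution 1). The result of the list of signal transducers is not reported here. Lymphoid and dendritic clusters were clustered again. Names needed 3 markers, and the naming thresholds and these second clusterings were set after the clusters were seen. Of 18 groups, 14 were named. Names were rebuilt here and may differ from the study's. Scrublet called 0.775% and 0.688% of cells doublets, few for this loading, so doublets were kept.

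UMIs were summed per group and scaled. Intervals are exact Poisson, Clopper-Pearson and conditional binomial 95% intervals. Log2 ratios have 0.5 UMI added, and a gene with at least 20 UMIs over both libraries was called past 1.5-fold. The ratio step was tested on simulated data. Thinning drew 2000 UMIs per cell once. Members and lists were chosen with earlier results of these data known. Named were the members, up to 20 listed genes past 1.5-fold with an interval left out 1 in monocyte/macrophage-like cells, and the 3 genes most like each member. Other listed genes were named after their values were seen, and so were the motifs.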

Additional observations from a re-analysis of the deposited data

Results flagged for a closer look

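The cell filter left out 823 barcodes of the control library, which held 23 *Ifng* UMIs in 13 cells, or 3.27 CPM (2.08 to 4.91), against 1 *Ifng* UMI in 1030 left-out barcodes of the NK cell-depleted library. These cells enter no comparison above.

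Between monocyte/macrophage-like clusters, the control to NK cell-depleted ratio of *Ifngr1* pointed in opposite directions beyond counting error, although the difference between clusters was not tested. Its log2 value was 0.50 in the cluster led by *Gpnmb* and *Mmp13* and 0.72 in the one led by *Retnla* and *Mmp12*. It was -0.41 in the cluster led by *Vcan*, -0.43 in that led by *Ccl8* and *Lyve1*, -0.30 in that led by *Reps2*, -0.40 in that led by *Ace* and -0.27 in that led by *Hes1*. *Jak2* likewise had log2 values of 0.45 in the *Vcan* cluster and 0.85 in the *Reps2* cluster, against -0.77 in the *Hes1* cluster, where it stood at 41.5 and 70.7 CPM. The difference for *Jak2* was not tested either.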

How the results depend on the processing

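No paired analysis was possible because each group was 1 library, and for the same reason no library could be left out. The strict filter and the removal of doublets kept the cell names of the full set. The share of control *Ifng* UMIs in NK-like cells, 75.6%, was 89.5% with no upper limits on UMIs and genes, 86.7% with at least 2000 UMIs and at most 5% mitochondrial UMIs, 89.4% with cells called one by one, 87.5% with every cell thinned to 2000 UMIs and 80.1% without the 5 cells with the most *Ifng*. *Ifngr2* in NK-like cells, 5.17 CPM, was 11.4 CPM with cells called one by one. Both type II chains in control monocyte/macrophage-like cells, 10.2%, were seen in 3.31% of cells thinned to 1000 UMIs, 25.7% of cells thinned to 4000 UMIs and 31.7% of unthinned cells, since deeper cells show more genes. Of 7 receptor and kinase genes, 0 passed 1.5-fold between libraries in these cells, but 1 did with cells called one by one (*Tyk2*, log2 -0.59) and 1 with the melanoma-like level subtracted (*Jak2*, log2 -1.67, on 5 control UMIs in melanoma-like cells). Apart from depth, the cause was not tested. Of 19 targets tested in monocyte/macrophage-like cells, 9 were higher in the control library at 1.5-fold, against 9.09% of 11544 genes, and 6 at 2-fold. The share of all genes past 2-fold was not counted, so the second count has no background beside it.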

Other observations

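CD4/regulatory T-like cells, with 6 and 1 UMIs of *Ifngr2*, had 7 of 11 interferon gamma targets at least 1.5-fold higher in the control library, against 16.5% of 2885 genes. *Psmb8*, an immunoproteasome subunit, had 74 and 7 UMIs, a ratio of 2.29 (1.06 to 5.89), and *Cxcl10* had 61 and 5 UMIs, a ratio of 2.64 (1.07 to 8.42). *Irgm1* had 25 and 0 UMIs. The other 4 (*Gbp7*, *Cd274*, *Psmb9* and *Tap1*) had intervals that included 1. These counts come from 138 and 30 cells. NK markers stood at a summed 402 CPM (6 of 10 with UMIs) in the control cells and 69.5 CPM (1 of 10) in the NK cell-depleted ones. Of 7 NK activation genes tested there, 1 was at least 1.5-fold higher (*Ccl5*, 253 and 16 UMIs) and 2 were lower. These shares stood against 16.5% and 21.5% of 2885 genes. *Gzmb* was lower, with 25 and 22 UMIs, a ratio of 0.25 (0.133 to 0.458). Monocyte/macrophage markers stood at a summed 1590 and 886 CPM in the same T-like cells. The part of RNA from NK-like or monocyte/macrophage-like cells in these ratios was not tested. In CD8 T-like cells, with 137 and 168 CPM of *Ifngr2*, 1 of 7 targets was higher and 1 lower, against 13.8% and 14.5% of 2911 genes. The difference between these cell types was not tested.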
